A study of Mus musculus with 80 samples.

Results

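The 10 genes described here specify or mark the primitive endoderm. They are the transcription factors Gata4, Gata6, Sox7, Sox17 and Foxa2, the growth factor receptor Pdgfra, the endocytic proteins Dab2 and Cubn, the secreted protease Plat and the transcriptional coactivator Cited1. They were chosen by gene symbol, out of 37890 distinct symbols in the expression tables of 12 mouse embryonic stem (ES) cell libraries, and entries with the same symbol were summed. Gata4, Gata6, Dab2, Plat and Cited1 were listed in all 12 tables, Sox7 and Foxa2 in 11, Sox17 and Cubn in 10 and Pdgfra in 9.

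The primitive endoderm is the epithelium that forms on the surface of the inner cell mass of the blastocyst, next to the epiblast, and it becomes the parietal and visceral endoderm around the embryo. FGF4 made by epiblast precursors acts through FGF receptors and the kinase ERK on neighbouring cells, where GATA6 is kept and NANOG is shut off, and PDGFRA, SOX17, GATA4 and SOX7 then come on in turn. ES cells correspond to the epiblast, hold these genes at low levels, and can be turned into extraembryonic endoderm cells by forced GATA6 or GATA4.

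The series compared ES cells with and without SALL4 and SALL1, which are spalt-like zinc finger DNA-binding proteins. Sall4 delta/- cells (Sall4 KO, 2 libraries) were set against Sall4flox/- cells (Sall4 het, 2 libraries), so that both genotypes carry a null allele and differ in whether the other allele is deleted or floxed. Sall4 KO cells transfected with a mutant SALL4A (2 libraries) or with wild-type SALL4A (1 library) were set against Sall4 KO cells, and what the mutation alters is not stated in the sources used here. The label of the second mutant library gives the protein as a Flag-SALL4A-MUT transgene. Sall1-/-/Sall4-/- double knockout cells (DKO, 1 library) were set against their own wild-type cells (1 library), and Sall1 delta/- cells (Sall1 KO, 1 library) against Sall1flox/- cells (Sall1 het, 1 library). The wild-type line TT2 (1 library) is described only. Replicate 1 of the Sall4 groups and all single libraries but TT2 carry the strain label C57BL/6J, replicate 2 is the cell line E14.1 of strain 129P2/OlaHsd, and TT2 is a (C57BL/6NCrlj x CBA/JNCrlj)F1 line. The 2 libraries of each Sall4 group therefore differ in strain label as well as in unit and gene annotation, and these cannot be told apart from the spread between cultures of one line. The number of clones behind a genotype is not stated. Of 80 samples, the 68 that are not RNA-seq were not analysed here.

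Levels are the deposited FPKM in 9 libraries and the deposited RPKM in the replicate 2 libraries of Sall4 KO, Sall4 het and KO plus mutant SALL4A. Both units are per kilobase. Read totals cannot be recovered from them, so the depth of every library is unknown and values carry no interval for counting error. Sall4 RNA was high even where the label says that the gene is deleted, at 358 and 218 in those labelled KO against 196 and 64.2 in those labelled het, and at 109 in DKO cells against 17.6 in their wild type. The add-back libraries held less Sall4 RNA than those labelled KO, at 77.4 and 161 with mutant SALL4A and 97.4 with wild-type SALL4A. Sall1 stood at 2.27 in DKO, against 13.9 in wild type, and at 13.3 in the library labelled Sall1 KO, against 21.8 in Sall1 het and 10.8 in TT2. These gene-level values do not show which exons were read. The directions below follow the labels of libraries that their own Sall4 RNA does not bear out, the add-back libraries among them, and of a Sall1 KO library whose Sall1 RNA lay between those of TT2 and the wild type of DKO. Pou5f1, the POU factor of pluripotent cells, lay between 453 and 1703 in every library, whereas Afp and Ttr, secreted products of mature visceral endoderm, were at most 0.0237 in the libraries that listed them. In bulk libraries a small number of differentiated cells and a low level in every cell cannot be told apart.

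Every primitive endoderm gene was low. Of 111 values (10 genes in the libraries that list them), 26 were at 1 or more. The highest was 5.85 for Cited1 in replicate 2 of Sall4 het, and the lowest was 0.00925 for Plat in TT2. Sox7, Sox17, Pdgfra, Foxa2 and Cubn stayed below 1 in every library that listed them. Summed over the 5 genes listed everywhere, the level was 2.77 and 2.12 in the libraries of KO plus mutant SALL4A, 3.76 in KO plus wild-type SALL4A, 12.1 and 9.19 in those labelled Sall4 KO, and 7.55 and 8.16 in Sall4 het. The DKO library had 11.3 and its wild type 6.91, Sall1 KO had 5.15 and Sall1 het 5.72, and TT2 had 3.03. The libraries labelled KO and DKO thus held the 3 highest sums, and the mutant add-back libraries the 2 lowest, with FPKM and RPKM sums ranked together. Cited1 made up 3.49 and 5.85 of the het sums, but 1.17 and 1.10 of the KO sums.

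**Figure D1:**
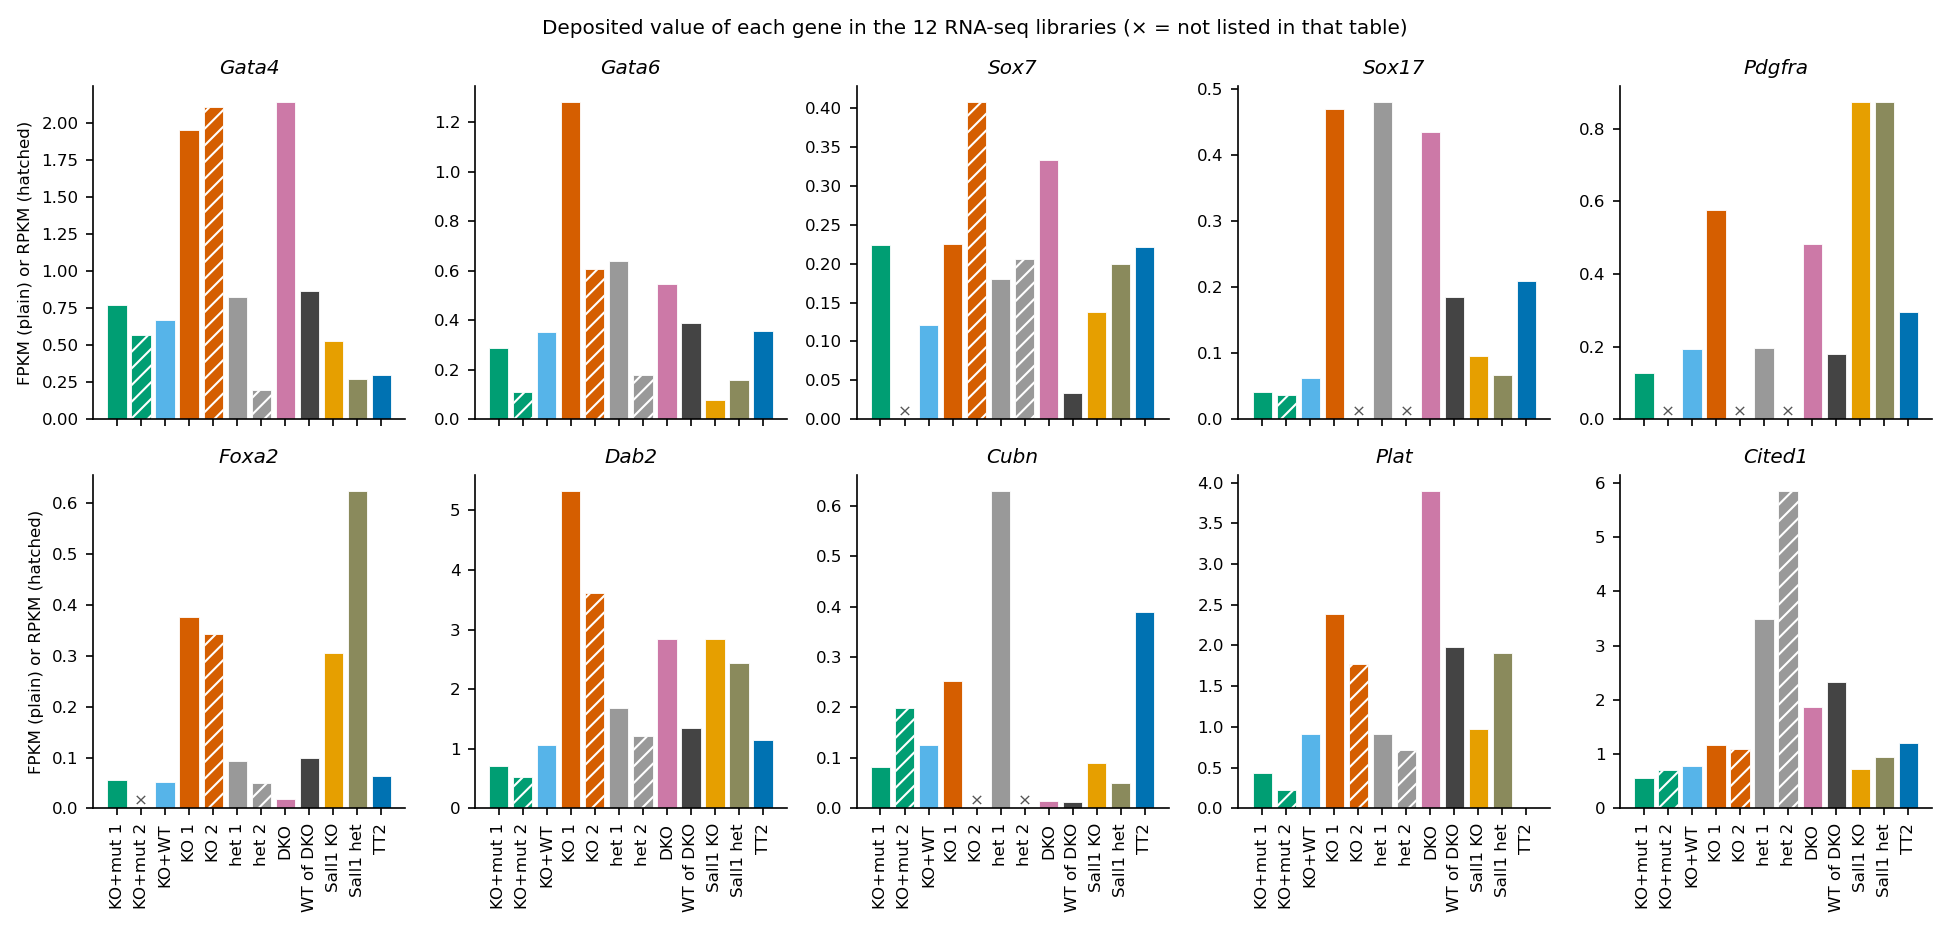
Deposited level of each of the 10 genes (vertical axis, FPKM for plain bars and RPKM for hatched bars) in the 12 libraries (horizontal axis), with a cross where a table does not list the gene. Gata4, Dab2 and Plat are higher in the library labelled Sall4 KO than in Sall4 het in each replicate, and in DKO than in its own wild type, while Cited1 is highest in Sall4 het, at 3.49 and 5.85.

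The comparison of cells labelled Sall4 KO with Sall4 het asks what goes with deletion of the floxed Sall4 allele. Among the 7 genes listed in all 4 libraries, Gata4, Gata6, Sox7, Foxa2, Dab2 and Plat were higher in KO than in het in both replicates, and Cited1 was lower in both. Of all 17775 genes listed in these 4 libraries, 28.4% were higher in both replicates and 30.1% lower in both. As deposited, with FPKM and RPKM values pooled, both KO values lay above both het values for Gata4, Sox7, Foxa2, Dab2 and Plat, as for 18.3% of all genes, and below them for Cited1, as for 15.9%. The Gata6 groups overlapped. In replicate 1, where all 10 were listed, Cubn and Cited1 were lower. Sox17 was slightly lower in KO as deposited, at 0.470 against 0.480 FPKM, and 1.01-fold higher after scaling. The others were higher in KO, and no share over all genes was computed for replicate 1 alone. The replicate 2 tables hold only genes whose larger value, KO or het, is at least 0.305, and they leave out Sox17, Pdgfra and Cubn. Gata4, Gata6, Sox7 and Foxa2 were under 0.305 in het there, so they are listed through their KO values. At such het values only a higher KO value could list them, so this limit set their direction in replicate 2. The same limit acts on the shares over all genes and on the counts of the other gene lists, where it can set a direction either way.

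Gata6, the factor that starts the primitive endoderm programme, had 1.28 FPKM in replicate 1 and 0.607 RPKM in replicate 2 of the libraries labelled KO, against 0.641 FPKM and 0.180 RPKM in those of het. After scaling, it was 2.06-fold and 3.10-fold higher in KO, from levels below 1 in 3 of the 4 libraries. Gata4, its relative that acts later and remains on in parietal and visceral endoderm, had 1.95 FPKM and 2.11 RPKM in KO, against 0.824 FPKM and 0.200 RPKM in het. The scaled ratios of Gata4 were 2.44 and 9.72. The het value in replicate 2 is the lowest Gata4 value of the 12 libraries, so the larger ratio rests on a denominator near the bottom of the table. Gata4 lies on chromosome 14 (63817758 to 63890529 in mm9, the span given in the tables of these 4 libraries).

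The SOX factors differed less. Sox7, a late primitive endoderm factor that persists in parietal endoderm, had 0.225 FPKM and 0.408 RPKM in the libraries labelled KO, against 0.180 FPKM and 0.206 RPKM in het, with scaled ratios of 1.29 and 1.82. Sox17, which acts between GATA6 and GATA4 and is also a definitive endoderm factor, had 0.470 FPKM in KO and 0.480 FPKM in het in replicate 1, a scaled ratio of 1.01. Foxa2, a forkhead factor of visceral and definitive endoderm, had 0.377 FPKM and 0.343 RPKM in KO, against 0.0933 FPKM and 0.0492 RPKM in het. Its scaled ratios were 4.16 and 6.42, but all 4 values were under 0.4. Pdgfra, the receptor for PDGF-A and an early surface marker of the lineage, had 0.576 FPKM in KO and 0.197 FPKM in het in replicate 1, a ratio of 3.01.

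Dab2, an adaptor that links clathrin to endocytic receptors and polarises the primitive endoderm epithelium, was the most abundant of the 10 in KO. It had 5.32 FPKM and 3.61 RPKM in the libraries labelled KO, against 1.69 FPKM and 1.21 RPKM in het. The scaled ratios were 3.25 and 2.74. In the tables of these 4 libraries Dab2 spans 6249787 to 6390712 of chromosome 15, Plat 23868215 to 23893319 of chromosome 8 and Cited1 99442719 to 99447520 of the X chromosome, all in mm9. Cubn, the intrinsic factor and albumin receptor of visceral endoderm with which DAB2 works, went the other way in replicate 1, at 0.252 FPKM in KO and 0.629 FPKM in het. Plat, tissue plasminogen activator, a protease secreted by parietal endoderm, had 2.39 FPKM and 1.77 RPKM in KO, against 0.909 FPKM and 0.722 RPKM in het, 2.70-fold and 2.25-fold higher in KO. Cited1, a coactivator that binds CBP and p300 and is expressed in extraembryonic tissues, had 1.17 FPKM and 1.10 RPKM in KO, against 3.49 FPKM and 5.85 RPKM in het. Cited1 was 2.90-fold and 5.80-fold lower in KO and was the only gene of the 7 listed in all 4 libraries with its higher values in het.

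The test across all genes was limma with terms for group and replicate number, on log2 of the scaled value plus 1, a scale that understates the change of low genes. Only Gata4, Dab2, Plat and Cited1 of the 10 reached 1 in at least 2 of the 6 libraries fitted and were tested. Gata4 and Plat reached it through their KO values alone, which favours a higher value in KO, so their estimates are descriptive. The log2 change of KO over het was 1.10 ± 0.22 for Dab2 (SE, n = 2 per group), with a limma adjusted p of 0.418. For Gata4 it was 0.98 ± 0.23 with a limma adjusted p of 0.452. Plat stood at 0.71 ± 0.20 with a limma adjusted p of 0.484, and Cited1 at -1.37 ± 0.26 with a limma adjusted p of 0.416. None of the 4 passed the adjusted threshold of 0.05, and neither did any other of the 15094 genes tested (0%), although 1294 of them (8.57%) had an unadjusted limma p under 0.05. At least 2-fold lower in both replicates on the log2(value + 1) scale were 1.34% of genes tested, Cited1 among them at -1.75 in replicate 2 and just past the limit in replicate 1, and at least 2-fold higher in both were 0.967%, none of the 4. Without the filter on low values, the estimate for Gata6 was 0.43 ± 0.17, for Sox7 0.12 ± 0.16 and for Foxa2 0.32 ± 0.16, with limma adjusted p-values of 0.572, 0.887 and 0.668.

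**Figure D2:**
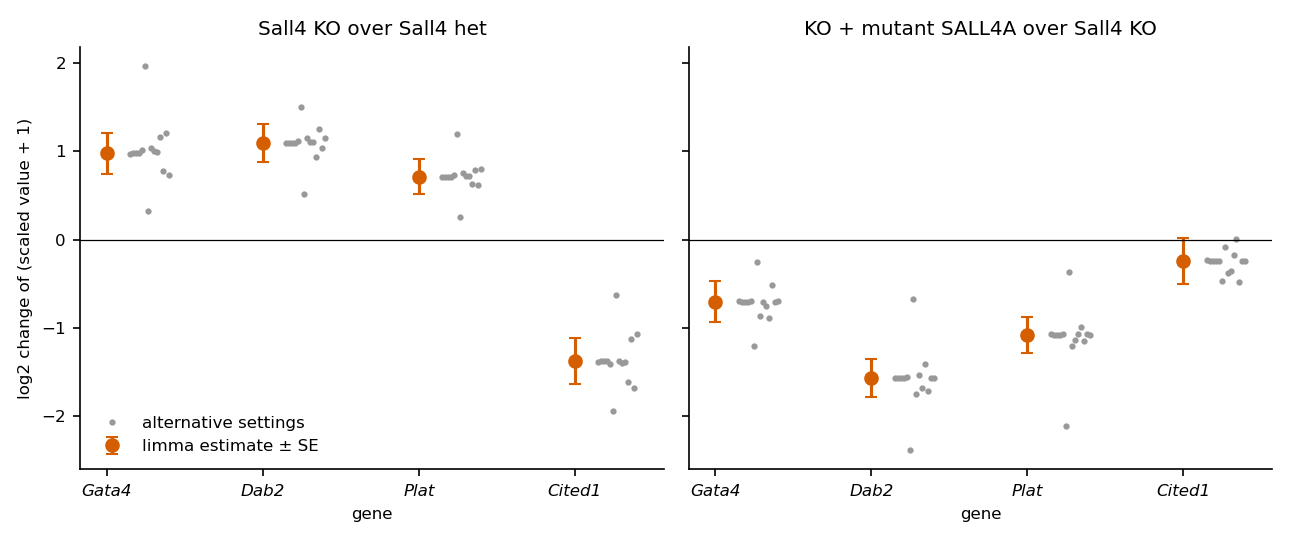
Log2 change of the scaled value plus 1 (vertical axis) for the 4 genes that could be tested (horizontal axis), in Sall4 KO over Sall4 het and in KO plus mutant SALL4A over Sall4 KO. Orange points are limma estimates with their SE (n = 2 libraries per group) and grey points are the alternative settings; Dab2 stands at 1.10 and -1.57, and Cited1 at -1.37 and -0.24.

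Promoter sequence is shown for Dab2 and Cited1, the genes highest and lowest in KO over het by that fit, because GATA4 and GATA6 are among the 10 and bind GATA motifs. RefSeq windows on GRCm38.p6, from 250 bases before to 50 bases after an annotated start, were found for 5 of the 10 genes. They were searched on both strands for the motif AGATAA and its variants that end in G or begin with T, which are the motif AGATAG, the motif TGATAA and the motif TGATAG. No matches overlap in the windows printed, and matches are in capitals. Dab2 has a far upstream start, chr15:6299539-6299838, and an inner start, chr15:6386498-6386797, both on the plus strand, and Cited1 is shown at its outermost start, chrX:102252132-102252431, on the minus strand.
Dab2 upstream start: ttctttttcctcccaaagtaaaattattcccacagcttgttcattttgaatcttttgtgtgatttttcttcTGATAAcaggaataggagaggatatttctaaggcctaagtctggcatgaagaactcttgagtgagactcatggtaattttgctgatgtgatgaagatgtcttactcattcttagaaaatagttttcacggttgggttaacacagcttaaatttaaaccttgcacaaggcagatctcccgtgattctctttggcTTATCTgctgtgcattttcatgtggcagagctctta
Dab2 inner start: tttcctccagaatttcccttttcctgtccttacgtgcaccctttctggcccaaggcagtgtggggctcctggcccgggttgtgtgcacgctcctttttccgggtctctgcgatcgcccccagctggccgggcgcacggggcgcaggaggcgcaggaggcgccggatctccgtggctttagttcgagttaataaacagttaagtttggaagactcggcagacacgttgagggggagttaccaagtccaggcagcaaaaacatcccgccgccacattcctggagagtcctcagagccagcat
Cited1 start: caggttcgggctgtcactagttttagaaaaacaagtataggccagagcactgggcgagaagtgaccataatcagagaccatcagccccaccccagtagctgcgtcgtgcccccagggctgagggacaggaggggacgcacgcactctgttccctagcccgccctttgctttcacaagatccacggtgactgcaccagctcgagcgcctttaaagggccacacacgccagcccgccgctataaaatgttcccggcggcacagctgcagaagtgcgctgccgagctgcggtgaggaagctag
The upstream Dab2 window held 2 matches, at -179 and 15 from the start, whereas the inner Dab2 window and the Cited1 window held none. Among all 32851 promoter windows of this length, 29.8% held at least 1 match and 7.77% held 2 or more, and 2 of the 10 windows of these genes held any, the other in Foxa2. A match is a string of letters and not a measured binding site. The TT2 table, which is at transcript level, divides Dab2 between starts: 0.464 FPKM over 3 transcripts that begin at chromosome 15 position 6249788 of mm9, and 0.690 FPKM over 3 that begin at 6336747.

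The next comparison sets libraries labelled as Sall4 KO with mutant SALL4A added against those labelled Sall4 KO. Their Sall4 RNA was lower than in KO, as given above. All 5 of the genes listed in the 4 libraries concerned, Gata4, Gata6, Dab2, Plat and Cited1, were lower in KO plus mutant SALL4A than in KO in both replicates. Among the 13107 genes listed in these 4 libraries, 30.6% were lower and 30.8% higher in both replicates. As deposited, both mutant values lay below both KO values for all 5, as they did for 43.5% of genes. In replicate 2, Gata4 and Gata6 are listed for KO only through their KO values, as given above. That favours a lower value in the mutant libraries, so their direction here is descriptive. Since the KO libraries serve here as the denominator and above as the numerator, the 2 comparisons are not independent. The KO and mutant tables of replicate 1 also use different gene models (Gata4 spans 63817751 to 63864097 in the mutant table), while those of replicate 2 share theirs for Gata4.

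Dab2 had 0.711 FPKM and 0.518 RPKM in KO plus mutant SALL4A, against 5.32 FPKM and 3.61 RPKM in the libraries labelled KO. It was 6.31-fold and 5.37-fold lower after scaling, and its add-back values also lay below those of het. Plat had 0.440 FPKM and 0.220 RPKM in KO plus mutant, against 2.39 FPKM and 1.77 RPKM in KO, 4.57-fold and 6.19-fold lower. Gata4 had 0.769 FPKM and 0.568 RPKM in KO plus mutant, against 1.95 FPKM and 2.11 RPKM in KO. Its add-back values were 2.14-fold and 2.86-fold lower than in KO after scaling. As deposited, with FPKM and RPKM pooled, they lay between both het values. The scaled ratios of Gata4 in KO over het were 2.44 and 9.72, so each scaled add-back value lay above het of its own replicate. Gata6 had 0.287 FPKM and 0.110 RPKM in KO plus mutant, against 1.28 FPKM and 0.607 RPKM in KO, 3.77-fold and 4.27-fold lower.

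Cited1 was no nearer to its het level with the mutant protein. It had 0.566 FPKM and 0.708 RPKM in KO plus mutant, against 1.17 FPKM and 1.10 RPKM in KO, and both add-back values were below every KO and het value. In replicate 1 the table of KO plus mutant also listed Sox17 at 0.0412, Pdgfra at 0.128, Foxa2 at 0.0567 and Cubn at 0.0817 FPKM, each below the KO library (0.470, 0.576, 0.377 and 0.252 FPKM). Sox7 was at 0.223 FPKM in KO plus mutant and 0.225 FPKM in KO, lower as deposited and 1.18-fold higher after scaling. In replicate 2 the mutant table listed Sox17 at 0.0370 and Cubn at 0.198 RPKM, with no KO value to set beside them.

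In limma, the log2 change of Dab2 in KO plus mutant over KO was -1.57 ± 0.22 (SE, n = 2 per group), with an adjusted p of 0.438. That of Plat was -1.08 ± 0.20 with a limma adjusted p of 0.438, that of Gata4 -0.70 ± 0.23 with 0.541 and that of Cited1 -0.24 ± 0.26 with 0.771. Without replicate 1 of KO the Cited1 estimate was 0.0031, and over all libraries left out in turn it lay between -0.48 and 0.0031. Gata4 and Plat reached 1 in the KO libraries alone of the 6 fitted and so were tested through the group where they are high, which favours a lower value in the mutant libraries. None of the 4 passed, and of the 11636 genes tested 0 did (0%), while 1043 (8.96%) had an unadjusted limma p under 0.05. Without replicate 1 of the mutant libraries the estimates of Dab2, Plat and Gata4 were -1.53, -1.14 and -0.70. Without replicate 2 of the mutant libraries they were -1.68, -1.07 and -0.75. Dab2 and Plat were at least 2-fold lower in both replicates on the log2(value + 1) scale, as were 0.679% of genes tested. Scaling mattered more here than above: as deposited, the median log2 ratio over all genes was -0.28 for the first replicate and -0.29 for the second, and the values above are relative to that shift. As deposited, the same 5 genes were lower in both replicates.

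The library labelled as KO with wild-type SALL4A can be set against replicate 1 of KO without a test. Its Sall4 RNA, 97.4 FPKM against 358 FPKM in KO, was lower, and its table gives Gata4, Gata6, Dab2, Plat and Cited1 the spans of the first mutant library and not those of KO. All 10 genes were lower in KO plus wild-type SALL4A than in the library labelled KO, as were 40.7% of the 21028 genes listed in both. Dab2 had 1.06 FPKM in KO plus wild type and 5.32 FPKM in KO, 4.28-fold lower, and was the only gene of the 5 at 1 or more in either library to pass 2-fold on the log2(value + 1) scale, at -1.46, as 12.1% of genes did. Gata4 had 0.667 FPKM in KO plus wild type and 1.95 FPKM in KO, Gata6 had 0.350 FPKM in KO plus wild type and 1.28 FPKM in KO, and Plat had 0.910 FPKM in KO plus wild type and 2.39 FPKM in KO. Beside the het library of replicate 1, Gata4 (0.824 FPKM there) and Gata6 (0.641 FPKM) were lower in KO plus wild type as deposited. Plat (0.909 FPKM) was at nearly the same deposited level. After scaling, Gata4 was 2.49-fold higher in KO than in KO plus wild type and 2.44-fold higher in KO than in het. The same 2 ratios were 3.11 and 2.06 for Gata6, and 2.23 and 2.70 for Plat. Cited1 was again far under het, at 0.773 FPKM in KO plus wild type and 1.17 FPKM in KO, against 3.49 FPKM in het. Sox17 was at 0.0627 FPKM in KO plus wild type, against 0.470 FPKM in KO, and Foxa2 at 0.0521 FPKM, against 0.377 FPKM in KO. No test of the wild-type against the mutant add-back was made, and with 1 wild-type library their values can only be read side by side.

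**Figure D3:**
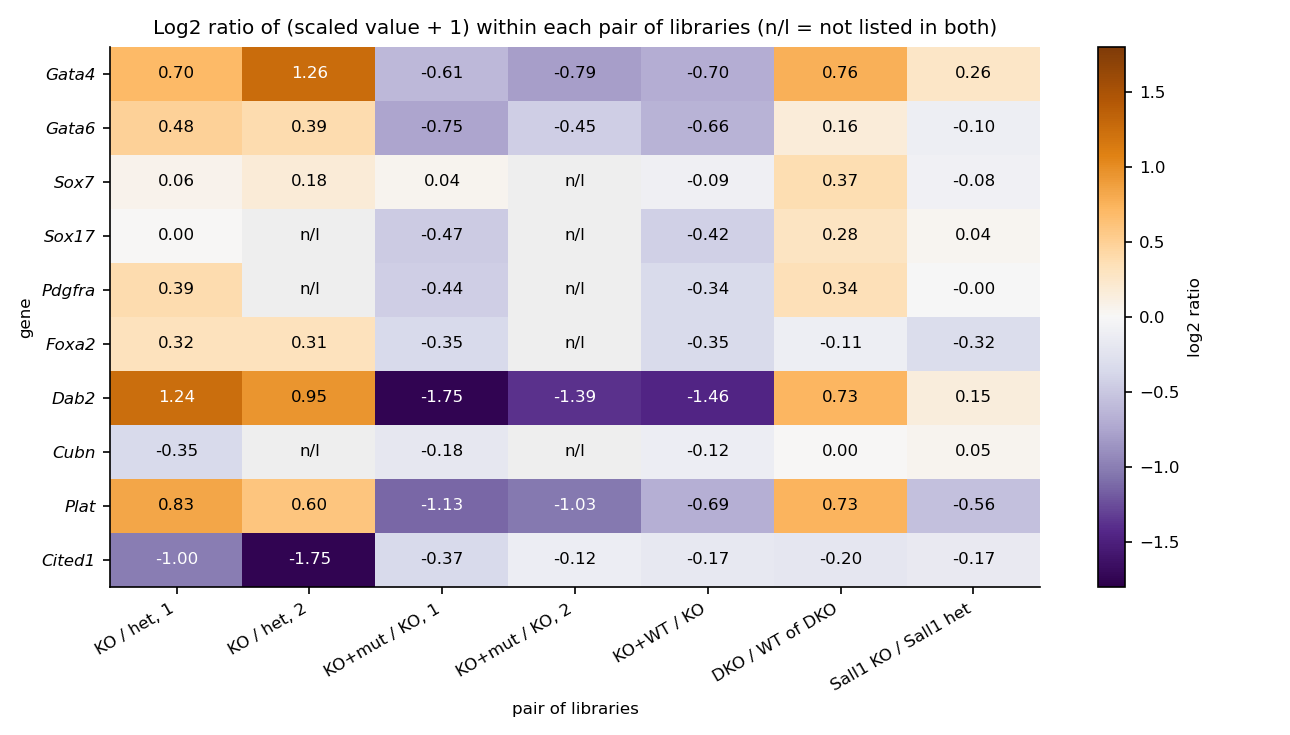
Log2 ratio of scaled value plus 1 for the 10 genes (rows) in 7 pairs of libraries (columns), orange where the first-named library is higher and purple where it is lower, with n/l where a gene is not listed in both. Dab2 stands at 1.24 and 0.95 in KO over het and at -1.75, -1.39 and -1.46 in the add-back libraries over KO; Cited1 is below 0 in all 7 pairs.

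The double knockout gives a separate pair of libraries, again without a test. Gata4, Gata6, Sox7, Sox17, Pdgfra, Dab2, Cubn and Plat were higher in the library labelled DKO than in its wild type and Foxa2 and Cited1 were lower. Over all 23235 genes listed, 43.6% were higher and 38.9% lower. Gata4 had 2.14 FPKM in DKO and 0.868 FPKM in its wild type, 2.51-fold higher, beside ratios of 2.44 and 9.72 between KO and het. Dab2 had 2.84 FPKM in DKO and 1.34 FPKM in wild type, 2.15-fold higher. Plat had 3.90 FPKM in DKO, its highest value of the 12 libraries, and 1.98 FPKM in wild type, 2.00-fold higher. On the log2(value + 1) scale none of the 10 passed 2-fold (Gata4 0.76, Plat 0.73, Dab2 0.73), and 4.72% of genes at 1 or more did so upwards.

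The regulators at lower levels followed in part. Pdgfra had 0.484 FPKM in DKO and 0.178 FPKM in wild type, and Sox17 had 0.435 FPKM in DKO and 0.185 FPKM in wild type. Gata6 had 0.547 FPKM in DKO and 0.388 FPKM in wild type, and Sox7 had 0.333 FPKM in DKO and 0.0338 FPKM in wild type, a ratio that rests on a very low denominator. Foxa2, higher in Sall4 KO, was lower in DKO, at 0.0193 FPKM against 0.100 FPKM in wild type. Cubn was at 0.0141 FPKM in DKO and 0.0127 FPKM in wild type. Cited1 had 1.86 FPKM in DKO and 2.33 FPKM in wild type, 1.23-fold lower, a smaller ratio than either replicate of KO over het gave.

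The library labelled Sall1 KO was set against that of Sall1 het, with Sall1 RNA at 13.3 and 21.8 FPKM. The 10 genes went both ways: Gata4, Sox17, Dab2 and Cubn were higher in Sall1 KO than in Sall1 het and the other 6 lower. Over all genes, 39.7% were higher and 40.7% lower. Gata4 had 0.527 FPKM in Sall1 KO and 0.270 FPKM in Sall1 het, and Dab2 had 2.84 FPKM in Sall1 KO and 2.44 FPKM in Sall1 het. Plat had 0.975 FPKM in Sall1 KO and 1.91 FPKM in Sall1 het, and Foxa2 had 0.306 FPKM in Sall1 KO and 0.624 FPKM in Sall1 het, its highest value in any library. Gata6 was at 0.0772 FPKM in Sall1 KO and 0.157 FPKM in Sall1 het. Pdgfra had its highest levels in this pair, 0.874 FPKM in Sall1 KO and 0.873 FPKM in Sall1 het, a ratio whose side of 1 depends on scaling. Neither of the 2 genes at 1 or more, Dab2 and Plat, passed 2-fold on the log2(value + 1) scale, and few genes did, 0.439% upwards and 0.514% downwards.

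In TT2, the wild-type line, Dab2 was at 1.15 and Cited1 at 1.21 FPKM. Gata6 (0.356), Gata4 (0.298), Pdgfra (0.295), Sox7 (0.222) and Sox17 (0.210) lay between 0.2 and 0.4 FPKM. Cubn, at 0.389 FPKM, was second in TT2 to replicate 1 of Sall4 het among the 12 libraries. Plat was close to 0 in TT2 at 0.00925 FPKM, against 0.220 or more elsewhere.

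Other genes of extraembryonic endoderm, from a list of 30, were described to see whether the lineage as a whole went with the 10. Of its 21 genes listed in all 4 libraries, 13 were higher and 5 lower in KO than in het in both replicates (28.4% and 30.1% over all genes). None of the 16 tested passed the adjusted threshold in limma, as no gene did. Their median log2 change was 0.58, against -0.02 over all genes tested. The basement membrane collagens Col4a1 and Col4a2, made in quantity by parietal endoderm, led the list. Col4a1 had 19.3 FPKM and 11.7 RPKM in the libraries labelled KO, against 8.14 FPKM and 3.09 RPKM in het, and a log2 change of 1.35 ± 0.23 with a limma adjusted p of 0.362 (n = 2 per group). Serpinh1, a collagen chaperone, stood at 1.13 ± 0.30 with a limma adjusted p of 0.478, and Rbp4, a retinol carrier of visceral endoderm, at -0.94 ± 0.36 with 0.579. The 5 lower in both replicates were Rbp4, Amn, Apoa1, Sparc and Tfpi. In replicate 2, Amn, at 0.190 RPKM in KO, and Aqp8 of the 13, at 0 in het, could be listed only in the direction found. Sparc, the highest gene of the list in both het libraries, had 148 FPKM and 71.4 RPKM in KO, against 219 FPKM and 101 RPKM in het. In KO plus mutant over KO, 12 of the 20 genes listed were lower and 2 higher in both replicates, beside 30.6% and 30.8% over all genes. The median of the 16 tested was -0.51, against -0.02 over all genes. In DKO over wild type, 17 of 30 were higher and 11 lower, beside 43.6% and 38.9% over all genes. The collagens were among the 11, Col4a1 at 11.1 FPKM in DKO and 13.1 FPKM in wild type and Col4a2 at 9.42 FPKM in DKO and 9.70 FPKM in wild type. The laminin chain Lama1 had 1.70 FPKM in DKO and 7.02 FPKM in wild type and was the only gene of the list to pass 2-fold in this pair on the log2(value + 1) scale.

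Relatives and partners of the 10 genes came from a list of 21. Of the 16 listed in all 4 libraries, Gata2, Pdgfa, Pdgfc, Serpine2 and Cited2 were higher in KO than in het in both replicates, and Gata1, Pdgfb and Plau were lower. Over all genes, 28.4% were higher in both replicates and 30.1% lower. Pdgfc, a PDGF ligand for PDGFRA, had 5.74 FPKM and 10.2 RPKM in KO, against 1.91 FPKM and 1.46 RPKM in het. Serpine2, which inhibits plasminogen activators and thrombin, had 13.9 FPKM and 11.4 RPKM in KO, against 5.06 FPKM and 3.70 RPKM in het. Cited2, the relative of Cited1, had 78.5 FPKM and 43.8 RPKM in KO, against 29.2 FPKM and 25.3 RPKM in het, the opposite direction to Cited1. In KO plus mutant it had 19.5 FPKM and 12.1 RPKM. None of the 11 genes tested passed the adjusted threshold in limma in either comparison, as no gene did. Their median log2 changes were 0.09 in KO over het and -0.33 in KO plus mutant over KO.

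Markers of other cell types differed between the same libraries. Pdgfra and Plat are also expressed by fibroblasts. Fibroblast feeder markers (12 genes) summed to 22.5 and 13.5 in KO plus mutant, 33.2 in KO plus wild type, 143 and 52.2 in the libraries labelled KO, and 71.8 and 58.3 in het. They summed to 412 in DKO and 413 in its wild type, to 203 in Sall1 KO and 212 in Sall1 het, and to 5.67 in TT2. All 12 were listed in every library but those of replicate 2, where KO and het listed 10 and KO plus mutant 8, so sums are best read within a replicate. Of 10 listed in all 4 libraries, 6 were higher in KO than in het in both replicates and 2 lower, against 28.4% and 30.1% over all genes. In both replicates 7 of 8 were lower in KO plus mutant than in KO, against 30.6% over all genes. In DKO over its wild type 8 of 12 were higher, Twist1 by at least 2-fold on the log2(value + 1) scale, and 4 lower. Over all genes, 43.6% were higher in this pair and 38.9% lower, and 4.72% of genes at 1 or more passed 2-fold upwards. Thy1, a surface glycoprotein, led the list and was lower in KO, at 1.23 FPKM and 1.33 RPKM, against 7.54 FPKM and 5.50 RPKM in het. The collagen Col3a1 had 2.25 FPKM and 1.30 RPKM in KO, against 0.0786 FPKM and 0.0614 RPKM in het. Col3a1 and Lum, among those higher in both replicates, are listed in replicate 2 through their KO values, which set their direction there. The proteoglycans Lum and Dcn were both at 0 in replicate 1 of KO plus mutant and in TT2, Lum also in replicate 2 of het and Dcn in replicate 1 of het, and Postn was at 0 in replicate 1 of KO. Trophoblast markers (10 genes) summed to 66.8 and 51.6 in KO plus mutant, 67.2 in KO plus wild type, 168 and 72.2 in KO, 118 and 58.8 in het, 173 in DKO and 50.6 in its wild type, 57.4 in Sall1 KO and 52.0 in Sall1 het, and 12.9 in TT2, over 9 listed genes except 8 in replicate 2 of KO plus mutant and 10 in TT2. Of 9 listed in all 4 libraries, Cdx2, Hand1 and Krt7 were higher in KO than in het in both replicates, and Elf5 and Esx1 were lower. Cdx2, at 0.167 RPKM in het, is listed in replicate 2 through its KO value, which set its direction there. The shares over all genes were 28.4% higher and 30.1% lower. Hand1, a bHLH factor of trophoblast and mesoderm, stood at a log2 change of 0.99 ± 0.22 in KO over het and -1.58 ± 0.22 in KO plus mutant over KO, with limma adjusted p-values of 0.438 in both. The part of these cell types in the values of the 10 genes was not tested.

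**Figure D4:**
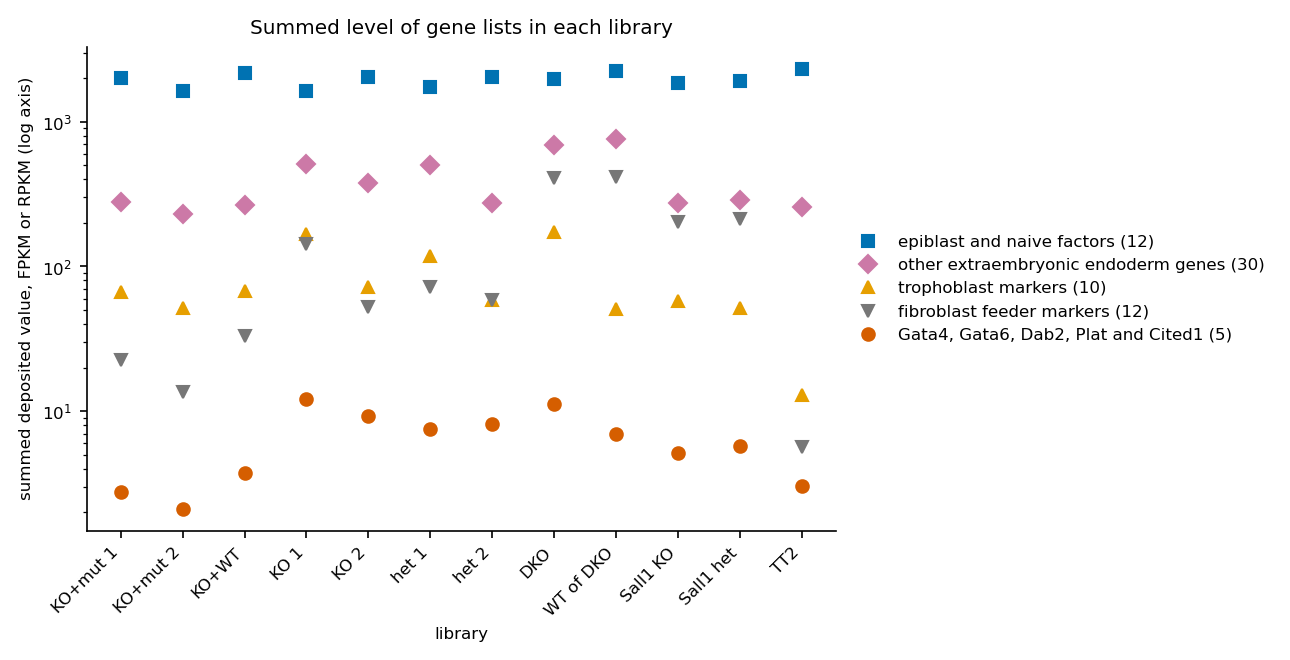
Summed deposited level (vertical axis, FPKM or RPKM, log axis) of 5 gene lists in the 12 libraries (horizontal axis), 1 point per list and library, with the number of genes in the list in the legend, of which replicate 2 tables list fewer. The 5 primitive endoderm genes listed in every table sum to between 2.12 and 12.1, below the epiblast and naive factors at 1634 to 2317 in every library, and the feeder markers are lowest in TT2 at 5.67.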

How the data were processed

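RNA-seq tables of 12 mouse ES cell libraries were used. Per the file headers, 9 hold FPKM and 3 hold RPKM values made by the authors. Per the submitters' processing notes the series used TopHat, Bowtie 0.12.7, SAMtools, MACS 1.4.2 and mm9, and the step each served is not stated there. Entries of the same symbol were summed, and symbols were matched as written; 18 symbols of 1 table were set by identifier. The TT2 table is at transcript level, with 99.3% of 21689 identifiers matched.

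The 6 libraries of Sall4 KO, Sall4 het and mutant add-back were scaled by median ratio and put on a log2 scale with a pseudocount of 1. The fit took every gene reaching 1 in 2 libraries or more and used limma 3.58.1 under R 4.3.3 (eBayes with trend, two-sided, Benjamini and Hochberg adjustment over all genes tested). Replicate number was a term because replicates differ in unit and annotation. The correlation of replicate deviations was 0.578 between KO and het, 0.0632 between KO and mutant and 0.104 between het and mutant, over 11636 genes. Single pairs have no test, and 2-fold on the log2(value + 1) scale is their limit. The fit was tried on simulated data whose changed genes all lay at higher levels than the 10 genes. That trial does not show whether changes at the level of the 10 genes would be called. Tables and figures were made with matplotlib 3.10.9, numpy 2.4.6 and pandas 2.3.3 under Python 3.11.15. The text names the 10 genes, and of each of 7 other lists up to 4 genes with the largest smaller-of-the-replicates ratio of KO over het. Genes named beyond these, because a count of 5 or fewer falls on them, because they stood at 0 or as markers of lineage, were chosen after their values were seen. The genes and lists were chosen with earlier results of these data known.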

Additional observations from a re-analysis of the deposited data

How the results depend on the processing

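No setting tried brought Gata4, Dab2, Plat or Cited1 past the adjusted threshold in limma. Over 15 settings the log2 change of KO over het ranged between 0.33 and 1.97 for Gata4, 0.51 and 1.51 for Dab2, 0.26 and 1.20 for Plat, and -1.94 and -0.63 for Cited1, the extremes coming from pseudocounts of 0.1 and 5. In KO plus mutant over KO, Cited1 turned to 0.0031 without replicate 1 of Sall4 KO and ranged between -0.48 and 0.0031 when a library was left out, and the other 3 kept their direction. Without the replicate block the changes were equal, 0 genes passed in either comparison, and the lowest adjusted p was 0.279 in KO over het and 0.721 in KO plus mutant over KO. The count of genes past the threshold in KO plus mutant over KO was 0 with all libraries and ranged between 0 and 262 when a library was left out: 262 without mutant replicate 1 (259 of them higher) and 102 without mutant replicate 2 (23 of them higher), where the spread of the remaining mutant library is borrowed from the other groups. With a pseudocount of 0.1, 2 of the genes passed 2-fold in DKO over its wild type and 4 in KO plus wild type over KO, against 0 and 1 with a pseudocount of 1, and with a pseudocount of 5 none passed in KO plus wild type over KO (0). Of values as deposited, 5 of the genes rather than 4 were higher in Sall1 KO, the fifth being Pdgfra. The counts of genes with the same direction in both replicates were the same as deposited and with TMM factors, alternatives chosen after seeing the data. Depth is unknown, and most of the 10 genes lie below 1, where few reads may stand behind a value.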

Other observations

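Genes of the FGF and ERK pathway, which sets the balance of epiblast and primitive endoderm, were not called in limma in either comparison (0 of 14 and 0 of 13 tested). No gene at all was called, out of 15094 and 11636 tested. Dusp6, a phosphatase induced by ERK, had 53.0 FPKM and 39.0 RPKM in the libraries labelled Sall4 KO, against 17.5 FPKM and 25.3 RPKM in het, a log2 change of 1.03 ± 0.35 with a limma adjusted p of 0.541 (n = 2 per group). Grb2, the adaptor that couples FGF receptors to RAS, had 29.4 FPKM and 41.1 RPKM in KO, against 44.4 FPKM and 61.0 RPKM in het. Of 15 pathway genes listed in all 4 libraries, 5 were higher and 3 lower in KO in both replicates, against 28.4% and 30.1% over all genes.

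Among 12 epiblast and naive factors, 4 of the 11 listed were higher and 3 lower in KO than in het in both replicates. The shares over all genes were 28.4% higher and 30.1% lower. None of the 11 tested passed in limma, as no gene did. Tfcp2l1, a factor of naive pluripotency, had 21.6 FPKM and 10.1 RPKM in KO, against 7.09 FPKM and 4.55 RPKM in het, a log2 change of 1.20 ± 0.33 with a limma adjusted p of 0.484 (n = 2 per group). Nanog, the factor set against Gata6 in the early embryo, had 88.9 FPKM and 208 RPKM in KO, against 138 FPKM and 397 RPKM in het. Its log2 change was -0.82 ± 0.62 with a limma adjusted p of 0.792. In the add-back libraries Nanog stood at 386 FPKM and 233 RPKM with mutant SALL4A and at 587 FPKM with wild-type SALL4A. The log2 change of Nanog in KO plus mutant over KO was 1.44 ± 0.62 with a limma adjusted p of 0.586. Otx2, a factor of epiblast and anterior visceral endoderm, had 15.6 FPKM and 13.2 RPKM in KO, against 23.1 FPKM and 38.8 RPKM in het. Its log2 change in KO over het was -1.05 ± 0.37 with a limma adjusted p of 0.557. Streak and definitive endoderm markers, a list of 10 described because Sox17 and Foxa2 are shared with that lineage, were low as well, with sums of 5.80 and 5.71 in KO and 3.10 and 3.42 in het, over 10 genes in replicate 1 and 5 in replicate 2. Of the 5 listed in all 4 libraries, Eomes and Cxcr4 were higher in KO in both replicates and T was lower, beside 28.4% and 30.1% over all genes.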
